A study of Mus musculus with 24 samples.

Results

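The 10 genes described here encode enzymes that make NAD or lead into it, and they were followed in mouse liver over 1 day. They are Nampt, Nmrk1, Nmnat1, Nmnat3, Naprt and Nadsyn1 of the salvage routes, and Qprt, Haao, Kynu and Acmsd of the tryptophan (de novo) branch. Each was taken from a list of gene symbols, through the array probe sets annotated to that symbol and no other, which were averaged per gene. All 10 were found among the 23152 genes measured, each by 8 to 23 probe sets. The livers came from male mice, 13 weeks old, fed chow ad libitum, of a strain that the labels write as C56bl/6J, with no genotype or treatment that sets groups apart. Total RNA was measured at 8 zeitgeber times, ZT0 to ZT21 in steps of 3 h, on 3 arrays per time, 24 in total. Zeitgeber hours are counted, by convention, from lights on at ZT0. The labels number the replicates 1 to 3 without stating whether each is a separate animal. The p-values thus measure the spread between arrays. How much of that spread lies between animals and how much is technical is not known.

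NAD carries electrons in metabolism and is also consumed by sirtuins, PARPs and other enzymes that release nicotinamide. Nampt encodes the rate-limiting enzyme of the salvage route, which turns that nicotinamide into nicotinamide mononucleotide (NMN). Nmrk1 encodes a kinase that makes NMN from nicotinamide riboside, and the Nmnat enzymes join NMN or its acid form to an adenylate group. Naprt encodes the entry enzyme for nicotinic acid, and Nadsyn1 the synthetase that amidates the acid dinucleotide, a last step that nicotinic acid and the tryptophan branch share. In the tryptophan branch, kynureninase (Kynu) and 3-hydroxyanthranilate dioxygenase (Haao) produce an unstable intermediate. It can become quinolinic acid, which Qprt draws into NAD, or be diverted to full oxidation by the decarboxylase Acmsd. The liver is the main organ that runs the tryptophan branch as a whole. In liver and other tissues Nampt is a known output of the circadian clock.

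In these livers Nampt and Nmrk1 rose together towards ZT9 to ZT12, whereas Kynu and Haao peaked near ZT20 to ZT22. Nampt had a fitted peak-to-trough range of 6.61-fold and Nmrk1 of 3.92-fold, with acrophases (fitted hours of the peak) of 11.52 and 11.44 h. Kynu ranged over 2.80-fold and peaked at 21.96 h, and Haao over 1.59-fold at 20.09 h. The other 6 genes, Nmnat1, Nmnat3, Naprt, Nadsyn1, Qprt and Acmsd, did not pass the test of a 24-h rhythm. A rhythm here is a cosine and sine of a 24-h period fitted with limma, called at a Benjamini-Hochberg adjusted p under 0.05 over all genes. By this rule 4 of the 10 genes were rhythmic, beside 6.88% of all 23152 genes and 13.9% of the 10289 genes above background. The 10 genes were chosen with earlier results of these data known, so this count is a description and not a test. Background is the 95th percentile of 1101 olfactory receptor genes, 6.17 on the log2 scale, and 9 of the 10 genes had a mean above it. Nmnat3 lay below it, with a mean of 5.70.

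**Figure D1:**
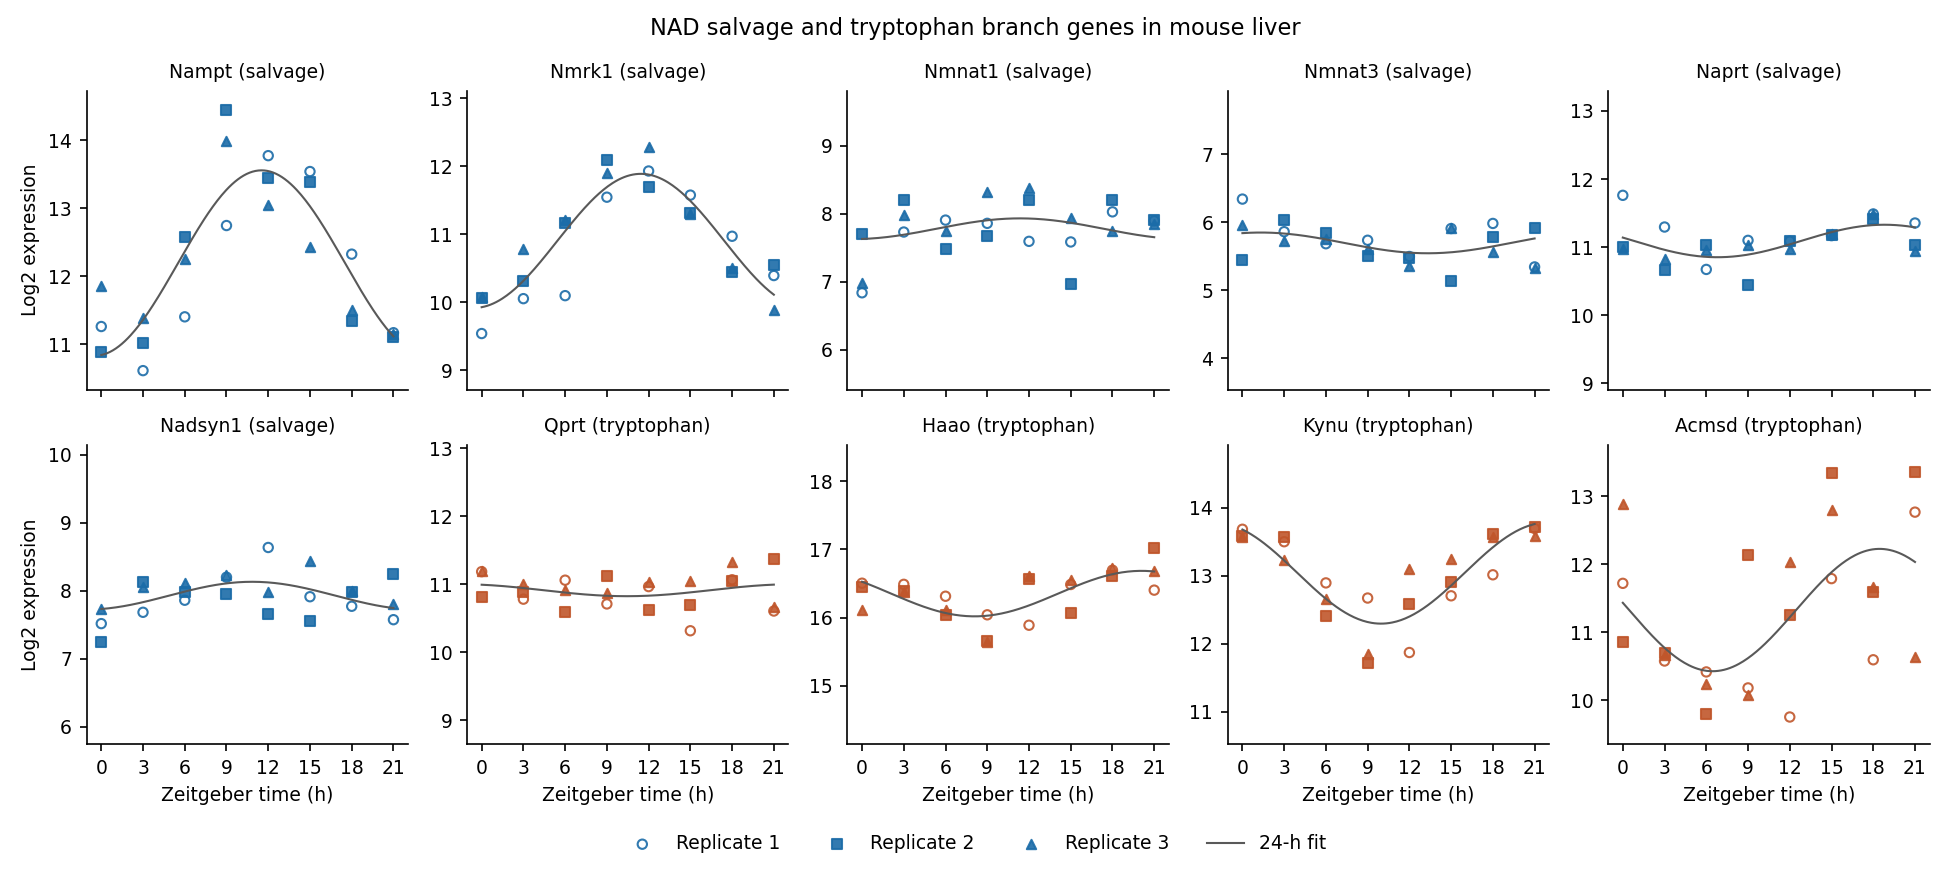
Log2 expression of the 10 genes (vertical axes, each spanning the same number of log2 units) against zeitgeber time in h. Every point is 1 array, with a marker for each replicate number, and the line is the fitted 24-h curve; salvage genes are blue and tryptophan branch genes orange. Nampt and Nmrk1 are high from ZT9 to ZT15, Kynu is low from ZT6 to ZT12, and the Acmsd arrays of 1 time lie far apart.

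The promoters of Nampt, Nmrk1 and Haao are shown because these rhythmic genes had an entry in the RefSeq promoter table (GRCm38.p6, the mm10 assembly). Nampt and Nmrk1 peaked at nearly the same hour, and Haao at another. The table matched 8 of the 10 genes; Naprt and Kynu had no entry. Each sequence is the 250 bases before the annotated start, 5′ to 3′ on the gene's own strand, in lower case, and the capitals mark GC boxes (GGGCGG or its reverse complement CCGCCC). The Nampt window is chr12:32820085-32820334 on the + strand and that of Nmrk1 is chr19:18631766-18632015 on the + strand. That of Haao is chr17:83846791-83847040 on the − strand, at a start site inside the span of the gene.
Nampt: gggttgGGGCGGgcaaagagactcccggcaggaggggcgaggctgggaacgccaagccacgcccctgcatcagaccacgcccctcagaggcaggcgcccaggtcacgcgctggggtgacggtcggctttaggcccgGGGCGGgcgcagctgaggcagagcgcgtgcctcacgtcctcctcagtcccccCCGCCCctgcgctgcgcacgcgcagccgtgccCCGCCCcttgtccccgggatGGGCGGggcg
Nmrk1: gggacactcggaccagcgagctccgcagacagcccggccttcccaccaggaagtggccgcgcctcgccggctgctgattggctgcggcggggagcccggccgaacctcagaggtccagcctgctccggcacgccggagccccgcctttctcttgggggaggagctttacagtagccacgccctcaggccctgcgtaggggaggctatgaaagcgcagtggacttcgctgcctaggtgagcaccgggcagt
Haao: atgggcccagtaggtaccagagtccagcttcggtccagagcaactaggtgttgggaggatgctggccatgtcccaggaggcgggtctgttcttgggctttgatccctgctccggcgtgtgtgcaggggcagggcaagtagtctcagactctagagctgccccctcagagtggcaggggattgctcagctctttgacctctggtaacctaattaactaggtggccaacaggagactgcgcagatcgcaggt
The Nampt window held 5 GC boxes, which begin 244, 114, 62, 30 and 10 bases before the start, and 75.6% of its bases were G or C. The Nmrk1 and Haao windows held no GC box and had 69.2% and 58.4% G or C, beside a median of 52.4% over all 32851 promoters in the table. A GC box occurred in 32.7% of those promoters. Clock-related motifs were searched on both strands in the same 250 bases of the 8 genes. They were the E-box CACGTG, the related CACGTT, the REV-ERB and ROR element core TAGGTCA, and the D-box forms TTATGTAA and TTACGTAA. None of the 4 kinds of motif was found in any of these windows. The same motifs occurred in 6.02%, 3.85%, 2.23% and 0.931% of all promoters. These letters were looked for in this window only, and sites elsewhere in a gene were not searched.

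Nampt (chromosome 12, 32820335 to 32853369 in mm10) was lowest at ZT3 and highest at ZT9. Its log2 expression was 10.61, 11.02 and 11.39 on the 3 arrays at ZT3. At ZT9 it was 12.74, 14.45 and 13.98, at ZT12 13.77, 13.44 and 13.04, and at ZT15 13.54, 13.39 and 12.43. By ZT18 it was back at 12.32, 11.35 and 11.50, and at ZT21 the 3 arrays lay within 11.10 to 11.17. All 9 arrays of ZT9, ZT12 and ZT15, from 12.43 to 14.45, were above all 9 arrays of ZT21, ZT0 and ZT3, from 10.61 to 11.86. Times compared for overlap, here and for the other genes and pairs, were picked from their own high and low values. Only the comparison of ZT12 with ZT0 further below was fixed beforehand. A lack of overlap is thus a description and not a test, and how many of all genes separate likewise was not counted. The means at ZT9, ZT12 and ZT15 (13.72 ± 0.88, 13.42 ± 0.37 and 13.12 ± 0.60, SD, n = 3 each) did not differ beyond their spread, so the hour of the top is not fixed more closely than that. The fitted range was 2.73 ± 0.31 on the log2 scale (SE, 24 arrays), with the acrophase at 11.52 ± 0.43 h (limma, Benjamini-Hochberg adjusted p = 1.18e-05). Among the 1592 rhythmic genes its range ranked 49.

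Nmrk1 (chromosome 19, 18632016 to 18652428) followed nearly the same course. It was 9.54, 10.06 and 10.08 on the arrays at ZT0, 11.55, 12.09 and 11.90 at ZT9, and 11.93, 11.69 and 12.28 at ZT12. Its ZT9 and ZT12 arrays overlapped, and both lay above every array of ZT21, ZT0 and ZT3, which reached at most 10.78. Nmrk1 also had the tighter replicates, with a median SD within a time of 0.30 against 0.51 for Nampt. The fitted range was 1.97 ± 0.19, with the acrophase at 11.44 ± 0.37 h (adjusted p = 2.38e-06), and it ranked 123 by range among the rhythmic genes. The acrophase of Nmrk1 minus that of Nampt was -0.08 ± 0.57 h, smaller than its error. This SE combines those of both fits as if independent, although both genes were read on the same arrays. Over the 8 time-point means their Pearson correlation was 0.96, given as a description, since all points come from the same arrays.

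The genes that finish the salvage routes did not pass the rhythm test. Nmnat1 (chromosome 4, 149467569 to 149485210), the nuclear adenylyltransferase, had a fitted range of 0.30 ± 0.22 (adjusted p = 0.71). It was 6.84, 7.70 and 6.98 at ZT0 and 7.59, 8.20 and 8.38 at ZT12, so its highest and lowest time points overlapped. Nmnat3 (chromosome 9, 98287433 to 98420533), whose product is placed in mitochondria, had a range of 0.30 ± 0.16 (adjusted p = 0.48), and only 4 of its 10 probe sets were above background.

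Neither gene of the nicotinic acid route passed the rhythm test. Naprt (chromosome 15, 75890963 to 75894481; the array lists it under the older symbol Naprt1) was 11.49, 11.42 and 11.49 at ZT18 and 11.10, 10.44 and 11.03 at ZT9. These arrays did not overlap, and the fitted range was 0.48 ± 0.14 with the acrophase at 18.80 ± 1.15 h (adjusted p = 0.10). Nadsyn1 (chromosome 7, 143795589 to 143822862) was 8.20, 7.96 and 8.23 at ZT9 and 7.52, 7.25 and 7.74 at ZT0. Its range was 0.41 ± 0.16, with the acrophase at 10.84 ± 1.53 h (adjusted p = 0.29).

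Kynu (chromosome 2, 43555258 to 43683048) was, of the 4 rhythmic genes, the farthest in hours from Nampt. It was 13.70, 13.72 and 13.58 on the arrays at ZT21 and 13.68, 13.58 and 13.58 at ZT0. At ZT9 it was 12.67, 11.72 and 11.85, and at ZT12 11.87, 12.58 and 13.10. All 9 arrays of ZT21, ZT0 and ZT3, from 13.24 to 13.72, lay above all 9 arrays of ZT6, ZT9 and ZT12, which reached at most 13.10. The replicates were close at the top, with an SD of 0.07 at ZT21, and wide near the trough, with an SD of 0.62 at ZT12. The fitted range was 1.49 ± 0.18, with the acrophase at 21.96 ± 0.47 h (adjusted p = 3.5e-05), and the correlation with Nampt over the 8 time-point means was -0.90.

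Haao (chromosome 17, 83831348 to 83848981), the next enzyme of the branch, moved by less. It was 16.40, 17.03 and 16.69 at ZT21 and 16.70, 16.62 and 16.73 at ZT18, against 16.04, 15.66 and 15.64 at ZT9. The 6 arrays of ZT18 and ZT21 did not overlap the 6 of ZT6 and ZT9, which reached at most 16.31. The fitted range was 0.67 ± 0.15, with the acrophase at 20.09 ± 0.85 h (adjusted p = 0.0158). This call depended on how probe sets were combined: the adjusted p was 0.131 with the brightest probe set and 0.0646 with the median one. One of its 12 probe sets reached the highest value in the data, 19.93, on 1 array, where a further rise might not be seen. Without that probe set the rhythm still passed (limma, adjusted p = 0.0171).

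Acmsd (chromosome 1, 127729413 to 127767564) had a fitted range of 1.80 ± 0.51, or 3.48-fold, larger than that of Kynu, and still did not pass (acrophase 18.45 ± 1.07 h, adjusted p = 0.0704). Its arrays were the most scattered of the 10 genes, with a median SD within a time of 0.90. At ZT21 it was 12.77, 13.35 and 10.64, at ZT12 9.76, 11.25 and 12.03, and at ZT9 10.18, 12.13 and 10.08. At ZT3 and ZT6, by contrast, all 6 arrays lay between 9.80 and 10.70, below the 3 arrays of ZT15, which were 11.79, 13.34 and 12.80. The call changed with single arrays: the adjusted p was 0.0339 without ZT9 replicate 2, 0.027 without ZT18 replicate 1 and 0.0375 without ZT21 replicate 3. It was also 0.0397 when only genes above background were tested. In the other direction, the brightest probe set alone had a range of 0.53 (adjusted p = 0.691). The adjusted p was 0.152 with the median probe set, 0.122 in the unmoderated test and 0.158 on replicates 2 and 3.

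Qprt (chromosome 7, 127107770 to 127122029), which commits quinolinic acid to NAD, had a fitted range of 0.18 ± 0.15 (adjusted p = 0.787), and of 0.44 with its brightest probe set (0.545). Its arrays lay between 10.32 and 11.38 over the whole day. At its highest time, ZT18, it was 11.07, 11.05 and 11.33, and at its lowest, ZT15, 10.32, 10.70 and 11.05, so these overlapped.

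**Figure D2:**
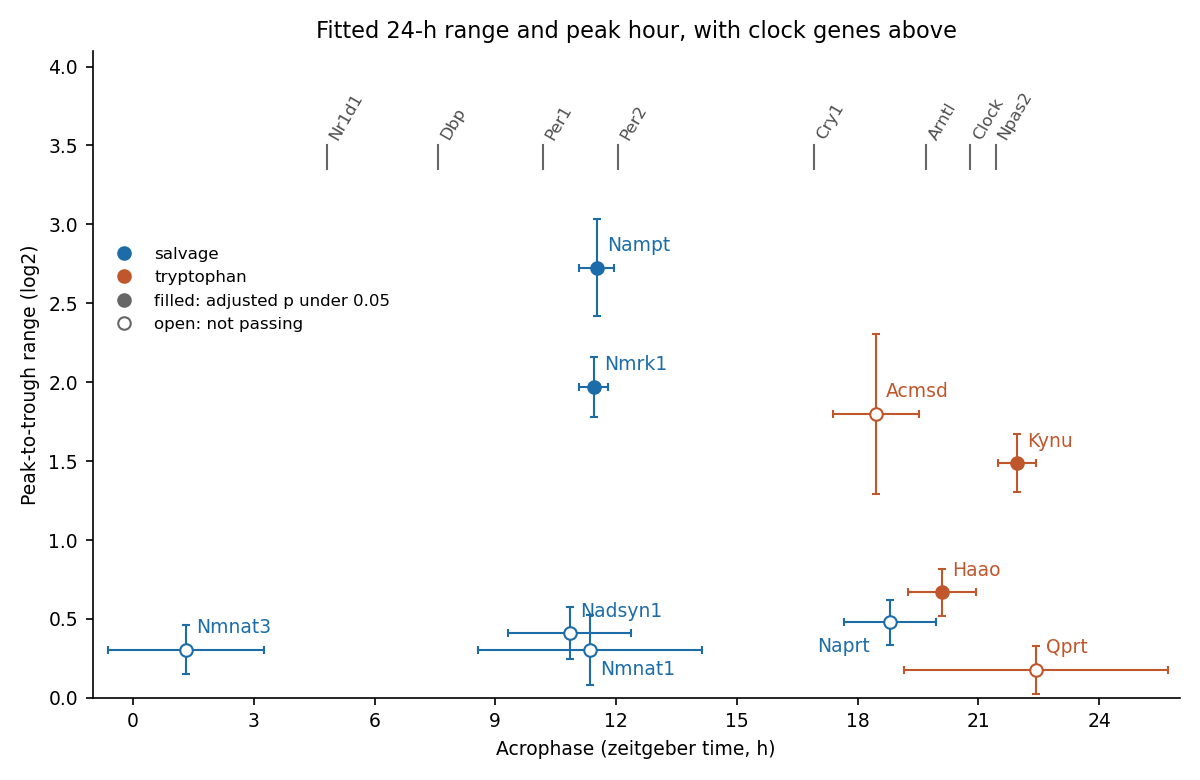
Fitted peak-to-trough range (log2, vertical axis) against acrophase (h, horizontal axis) for the 10 genes over 24 arrays, with standard errors as bars. Salvage genes are blue and tryptophan branch genes orange, filled where the adjusted p of the rhythm is under 0.05; ticks at the top mark the acrophases of 8 clock genes. Nampt and Nmrk1 stand near 11.5 h by Per2, while Kynu and Haao stand at 21.96 and 20.09 h.

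Set side by side, 2 of the 6 salvage genes and 2 of the 4 tryptophan branch genes were rhythmic, and 3 in each branch had an unadjusted p under 0.05, as did 19.2% of all genes and 33.2% of those above background. The median fitted range was 0.44 for salvage, 1.08 for the tryptophan branch, 0.25 for all genes and 0.33 for genes above background. The rhythmic genes of the branches did not share hours: both of salvage peaked between 9 and 15 h and both of the tryptophan branch between 18 and 24 h. Of all 1592 rhythmic genes, 494 peaked in the first window and 492 in the second. Naprt of salvage, not rhythmic by this rule (limma, unadjusted p = 0.0103), had its acrophase in the second window too, at 18.80 h. So did Acmsd of the tryptophan branch, also not rhythmic (unadjusted p = 0.00586), at 18.45 h. With these genes counted, the hours did not divide wholly by branch. Kynu peaked 10.44 ± 0.64 h after Nampt, and Haao 8.57 ± 0.95 h after it. These SEs also take the 2 fits as independent, although they share their arrays.

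The hours of the peaks moved between the sets of 8 arrays that share a replicate number, while the spacing of Nampt, Nmrk1 and Kynu moved less. Fitted on replicates 1, 2 and 3 separately, Nampt peaked at 13.2, 10.9 and 10.2 h and Nmrk1 at 13.0, 10.8 and 10.4 h. Kynu peaked at 23.7, 21.6 and 20.6 h in the same order, and Haao at 21.6, 20.6 and 18.3 h. Replicate 1 thus gave the latest hour for each of these 4 genes. The hours from Nampt to Kynu were 10.44, 10.64 and 10.38, a spread far smaller than that of either gene's own acrophase. From Nampt to Nmrk1 they were -0.23, -0.11 and 0.23. The spacing was looser for the others, with 8.38, 9.69 and 8.16 h from Nampt to Haao and 7.83, 5.92 and 7.53 h from Nampt to Acmsd. All 8 clock genes examined were latest in replicate 1 too, by 0.21 to 4.02 h, so the later hours were not particular to the NAD genes. Per2, a repressor of the clock, had acrophases of 13.8, 11.2 and 11.1 h. Against it Nampt peaked 0.56, 0.30 and 0.96 h earlier in the 3 sets. On all 24 arrays Nampt peaked 0.53 ± 0.54 h earlier than Per2 (SE from both fits, taken as independent), a lead no larger than its error. Kynu peaked 2.74, 2.18 and 1.51 h later than Arntl (Bmal1), the activator of the clock. In the 16 arrays of replicates 2 and 3, Nampt (2.81, adjusted p = 0.000242), Nmrk1 (1.99, 1.78e-05) and Kynu (1.56, 0.000926) had like ranges and passed. Haao did not, at 0.76 with an adjusted p of 0.092. Why replicate 1 read later was not tested.

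Single probe sets were also fitted on their own and set against the acrophase of their gene. That acrophase comes from the mean of the same probe sets, so their agreement is partly built in. Of the 12 Nampt probe sets, 11 were above background, and all 11 peaked within 3 h of the gene's acrophase, with ranges of 2.65 to 3.53. For Nmrk1 all 10 probe sets above background did so, with ranges of 1.92 to 2.66. All 23 probe sets of Kynu (1.01 to 2.42) and all 12 of Haao (0.31 to 1.26) did as well. So did 10 of the 11 of Acmsd (0.48 to 2.54), a gene that did not pass the rhythm test. For the other genes that did not pass, probe sets above background were counted likewise. Of these, 4 of 7 of Qprt, 4 of 7 of Nmnat1 and 3 of 4 of Nmnat3 peaked within 3 h of their gene's acrophase. It was 11 of 14 for Naprt and 14 of 19 for Nadsyn1. Probe sets of 1 gene share their arrays and are not replicates of a time point.

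**Figure D3:**
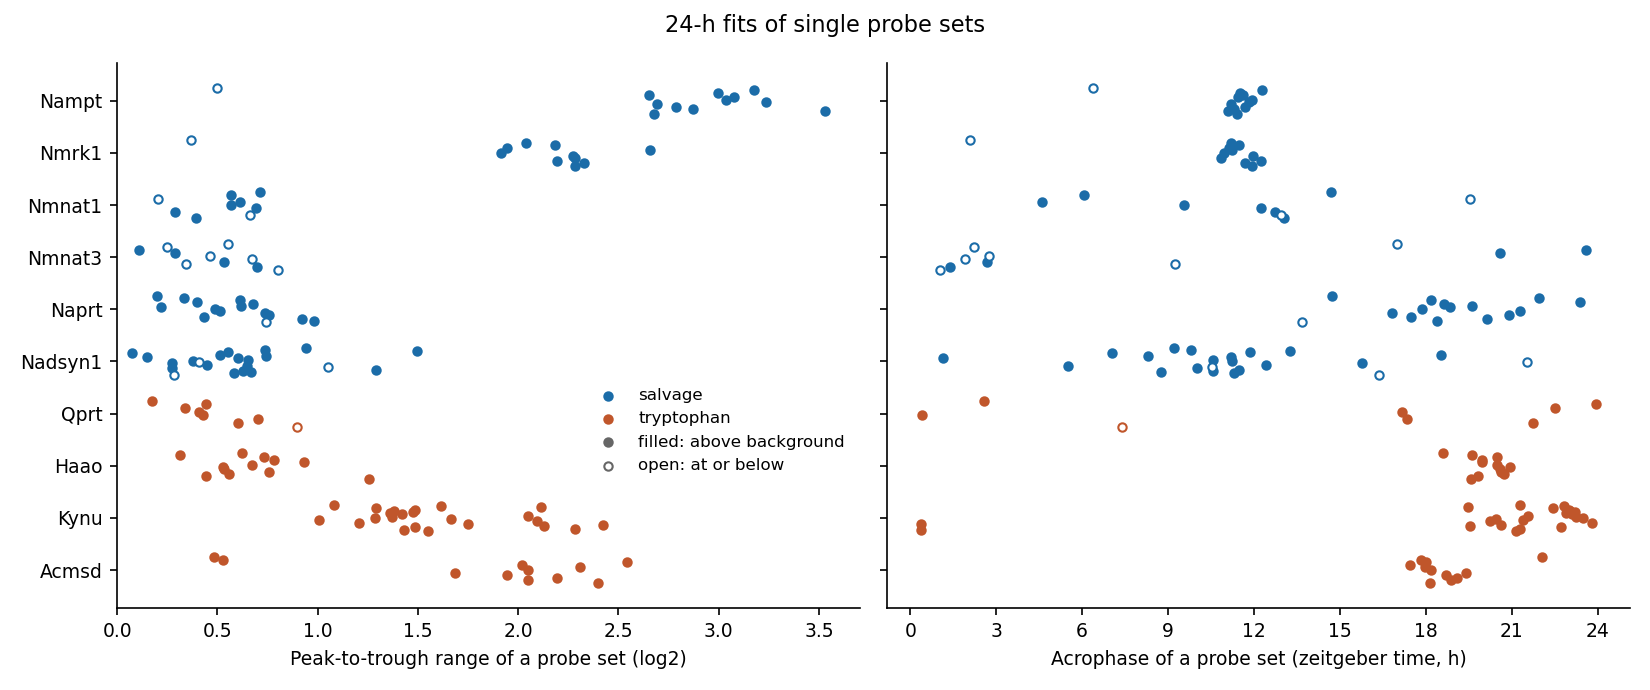
Fitted 24-h range (log2, left) and acrophase (zeitgeber time in h, right) of every probe set of the 10 genes, 1 point each, filled where the probe set's mean is above background. The filled points of Nampt, Nmrk1, Haao and Kynu lie within 3 h of their gene's acrophase; the 1 open point each of Nampt and Nmrk1, at 6.38 and 2.08 h, lies apart. Those of Qprt and Nmnat1 lie farther from each other.

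The test over the 8 time-point means, which assumes no curve, passed for 3 of the 10 genes, beside 1.98% of all genes. They were Nampt (limma, adjusted p = 0.00117), Nmrk1 (0.00107) and Kynu (0.00741), and Haao did not pass (0.113) except without ZT12 replicate 1 (0.0487). For Kynu the adjusted p was 0.134 with the median probe set. No gene of the 10 passed the test of a 12-h component added to the 24-h one. Over all genes 0 passed (0.0%) after adjustment in limma, and 6.09% had an unadjusted p under 0.05, against 0 of the 10.

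ZT12 minus ZT0, a plain difference of means 12 h apart, passed for 3 of the 10 genes. Nampt was higher at ZT12 by 2.09 ± 0.40 (SE, adjusted p = 0.0141), and Nmrk1 by 2.07 ± 0.28 (adjusted p = 0.00104), with no overlap of the 3 arrays at each time in either gene. Kynu fell by 1.09 ± 0.27 (adjusted p = 0.0473), also without overlap. Of all genes, 0.834% were called higher and 0.397% lower at ZT12. Nmrk1 passed in all 38 alternative settings of the processing. Nampt missed the threshold without ZT12 replicate 1 (0.0791), without ZT12 replicate 2 (0.051) and on replicates 2 and 3 alone (0.0509). It also missed it with the brightest probe set (0.141) and in a fit to the 6 arrays of these times (0.0795). Kynu passed in only 15 of the 38 and in 9 of the 24 fits that each left out 1 array, with adjusted p from 0.027 to 0.213 over those 24. The other 7 did not pass: Nmnat1 differed by 0.89 ± 0.26 (adjusted p = 0.0913) and Haao by -0.0025 ± 0.20. Nmnat1 passed without ZT0 replicate 2, at 0.0238, and when only genes above background were tested, at 0.0496. In the other direction, without ZT0 replicate 1 it differed by 0.72 (limma, adjusted p = 0.305). On replicates 2 and 3 alone its adjusted p was 0.294.

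Differences between 2 genes on the same array ask whether genes of different steps keep 1 ratio over the day. For 5 such pairs a 24-h rhythm of the difference was tested by permuting the arrays 100000 times, with p adjusted over the 5 pairs. Levels of different genes on an array cannot be set against each other, so only the change of each difference is given. Nampt minus Qprt was 1.54 ± 0.69 (SD, n = 3) above its day mean at ZT9 and -1.17 ± 0.28 at ZT3, with a range of 2.89 ± 0.37 (SE; permutation p = 2e-05, adjusted 5e-05). Nampt minus Naprt, nicotinamide against nicotinic acid salvage, had a range of 2.92 ± 0.38 with the peak at 10.93 h (permutation p = 1e-05, the smallest that these permutations can give, adjusted 5e-05). Nampt minus Nnmt had a range of 2.92 ± 0.63 (permutation p = 0.00062, adjusted 0.00103). Nnmt encodes the methyltransferase that removes nicotinamide, and its own arrays scattered widely, so that this difference lay between -3.13 and -0.15 at ZT0. These 3 differences share Nampt and are not separate evidence. Since Qprt itself ranged over 0.18, its difference largely repeats the rhythm of Nampt and says nothing of the tryptophan branch as a whole.

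Qprt minus Acmsd compares the step into NAD with the step that diverts its precursor. It was 1.11 ± 0.08 above its day mean at ZT6 and -1.54 ± 0.61 at ZT15, and the 3 arrays of these times did not overlap. Its fitted range was 1.72 ± 0.54 with the peak at 6.12 h (permutation p = 0.0171, adjusted 0.0214). Qprt itself ranged over 0.18, so this difference largely repeats the course of Acmsd with its sign reversed. Acmsd ranged over 1.80 with its acrophase at 18.45 h and did not pass the rhythm test (limma, adjusted p = 0.0704). That p was adjusted over all genes, and the p of the pair over the pairs only. The pair is thus not separate evidence of a daily shift between these steps. This pair missed the threshold with each gene's brightest probe set (adjusted p = 0.152) or median probe set (0.0669). Nmnat1 minus Nmnat3 did not pass, with a range of 0.59 ± 0.29 (permutation p = 0.159, adjusted 0.159).

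**Figure D4:**
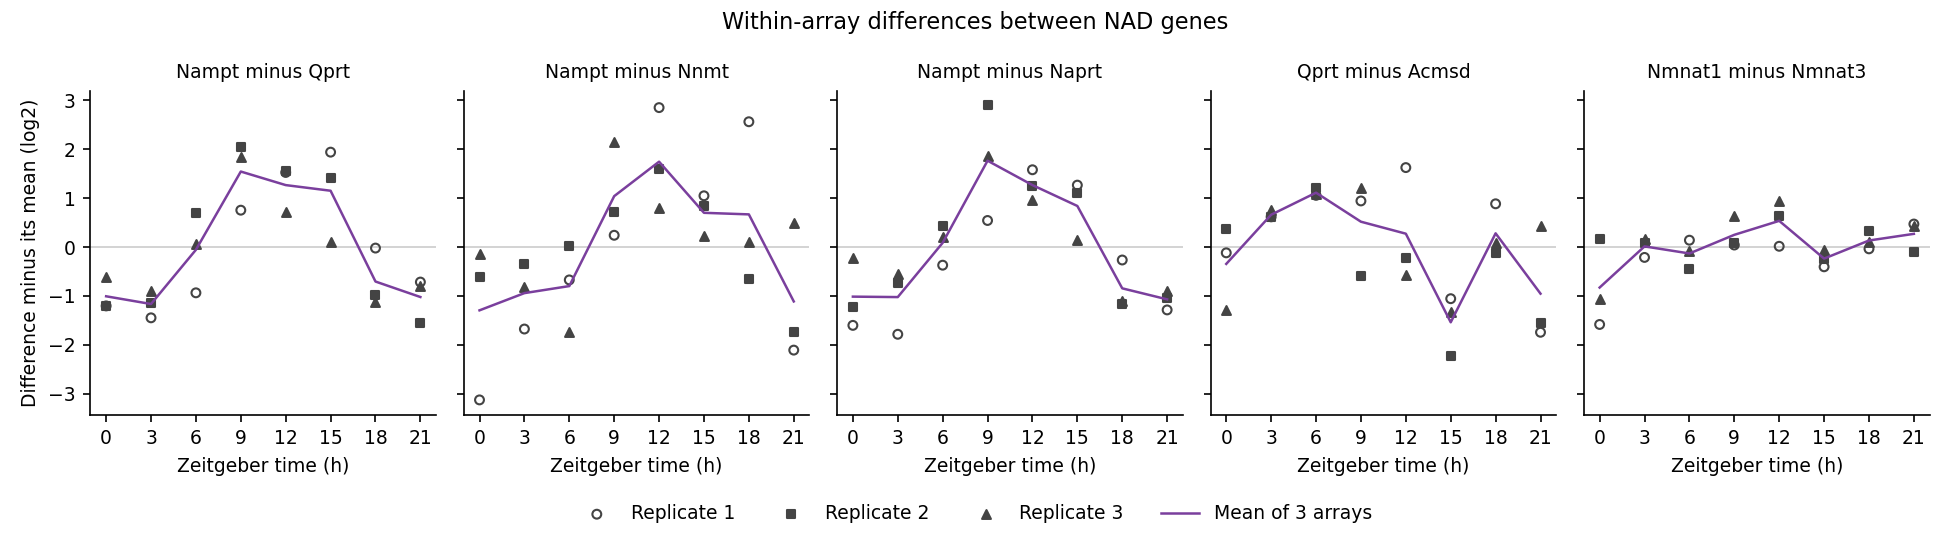
Difference in log2 expression of 2 genes on the same array, minus its mean over the 24 arrays (vertical axis), against zeitgeber time in h. Every point is 1 array, with a marker for each replicate number, and the line joins the means of 3 arrays. Nampt minus Qprt and Nampt minus Naprt are high from ZT9 to ZT15, and Qprt minus Acmsd is highest at ZT6 and lowest at ZT15.

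Other genes around NAD were taken from 5 lists with 39 genes, of which 38 were measured and 29 were above background. Of the 38, 7 were rhythmic and 4 had a time effect, none passed for ZT12 minus ZT0, and the median range was 0.35. Over all genes the shares were 6.88% for the rhythm (13.9% above background), 1.98% for the time effect, and 0.834% higher and 0.397% lower for the contrast. In the upper part of the tryptophan pathway and its side branches, 2 of 8 were rhythmic, with acrophases that lay between those of Nampt and Haao. Afmid, the formamidase that makes kynurenine, had a range of 1.28 ± 0.19 with its acrophase at 17.19 h (limma, adjusted p = 0.000231), and Kyat1, a kynurenine aminotransferase, 0.85 ± 0.15 at 19.41 h (0.00253). Kyat1 missed the threshold with its brightest probe set. Tdo2, the dioxygenase that opens the pathway in liver, had a range of 0.17 ± 0.10 (adjusted p = 0.539).

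Among 8 other salvage genes and carriers, 3 were rhythmic. Slc29a1, a nucleoside transporter, had a range of 1.07 ± 0.16 with its acrophase at 16.91 h (adjusted p = 0.000265). Nt5e, the ectoenzyme CD73, had 1.14 ± 0.23 at 21.01 h (0.00776), with a mean of 6.20, just above background, and missed the threshold with its brightest probe set. Nmnat2 passed with 0.55 ± 0.13 at 11.10 h (0.0257), but its mean of 5.01 was below background and it missed the threshold in 7 of 37 alternatives. None of the 3 genes of nicotinamide clearance passed, Nnmt with a range of 0.91 ± 0.54 (0.592), Aox1 (0.782) and Aox3 (0.288). Of 4 genes for NADP and mitochondrial NAD only Slc25a51, the mitochondrial NAD carrier, passed, with 1.27 ± 0.22 at 6.00 h (0.00203).

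Of 15 measured genes that consume NAD, 11 were above background. In limma 1 of the 15 was rhythmic, beside 6.88% of all genes and 13.9% of genes above background. An unadjusted p under 0.05 was found for 5 of the 15, beside 19.2% of all genes and 33.2% of genes above background. The rhythmic one was Parp4, with a range of 0.71 ± 0.13 and its acrophase at 3.37 h (adjusted p = 0.00357), and it missed the threshold with the brightest and the median probe set and on replicates 2 and 3 alone. Sirt1, the deacetylase often studied with Nampt, had a range of 0.17 ± 0.13 (adjusted p = 0.73), and Parp1 0.37 ± 0.12 (0.17).

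The genes whose course was most like that of each rhythmic member were sought among 9591 genes, by Pearson correlation over the 8 time-point means and as a description only. For Nampt these were Cgrrf1 (0.986), Fkbp5 (0.973) and Snhg7 (0.973). Fkbp5, a chaperone gene known to respond to glucocorticoids, had a range of 2.49 ± 0.29 with its acrophase at 11.39 h. For Nmrk1 they were Wdr12 (0.991), Dnajc21 (0.985) and Vps13a (0.984). For Kynu they were Rnf125 (0.990), Steap3 (0.990) and Zfand1 (0.987), and Rnf125 had a range of 3.54 ± 0.37. For Haao they were Nipal3 (0.986), Top3b (0.977) and Slc30a10 (0.975). Snhg7 and Nipal3 did not pass the rhythm test themselves (adjusted p = 0.15 and 0.126).

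The tissue label was checked with marker lists. All 8 hepatocyte markers were above background, with list means of 17.10 to 17.35 on the 24 arrays. All 6 Kupffer cell, 5 endothelial and 4 stellate markers were above it too. So were 2 of 5 biliary, 2 of 5 T and NK cell and 1 of 2 measured erythroid markers. None of the measured B cell, neutrophil, adipocyte or pancreatic acinar markers was above it on average. The array ZT0 replicate 1 stood apart: its mean correlation with the others was 0.9678 against 0.9802 to 0.9855. Its 4 neutrophil markers averaged 10.92 against 3.98 to 5.17 elsewhere, and its 6 Kupffer cell markers 12.32 against 7.78 to 9.85. Without it the rhythms of Nampt (adjusted p = 1.5e-05), Nmrk1 (4.77e-06), Kynu (6.95e-05) and Haao (0.0202) passed. ZT12 minus ZT0 was then 2.05 for Nampt (0.0481) and 1.90 for Nmrk1 (0.00777), and Kynu missed the threshold (0.139). In whole liver, fewer cells of a type and less RNA per cell cannot be told apart.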

How the data were processed

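Liver RNA (300 ng per sample) was hybridised to whole-transcript Affymetrix arrays, per the labels' protocols. The deposited values are log2 expression per probe set, normalized by the authors; the method is not given in the sources used here. Per the submitters' processing notes, limma, Affymetrix Power Tools 2.10.0 and mm10 were used, with no roles stated. Array medians were 6.44 to 6.51. The number of arrays, not a read depth, limits the precision.

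Of 269479 probe sets, 233753 had 1 gene symbol and were averaged per gene (median 8 per gene), 5106 had several and 30620 none. Symbols of 2189 genes were updated with the RefSeq gene table for GRCm38.p6, also the source of positions. Tests used limma 3.58.1 in R 4.3.3 on all 24 arrays: moderated F for 24-h terms, for 8 time points and for added 12-h terms, and the contrast ZT12 minus ZT0, with Benjamini-Hochberg adjustment over 23152 genes at 0.05. The range is the fitted peak minus trough. Pair differences used a permutation test of the 24-h F. The steps were tested on simulated data. Members and lists were chosen with earlier results of these data known. Named are all members, the rhythmic genes of the 5 lists, the smallest p of a list with none (Aox3), Nnmt in a pair, and, chosen after their values were seen, Tdo2, Aox1, Sirt1 and Parp1, and the 3 genes most like each rhythmic member.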

Additional observations from a re-analysis of the deposited data

How the results depend on the processing

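Over 38 alternatives the rhythms of Nampt, Nmrk1 and Kynu passed throughout, with adjusted p up to 0.000606, 6.56e-05 and 0.00598. Of 1402 values for 37 results on single genes, 1351 kept their side of the threshold, 44 lost it and 7 gained it. The sign of ZT12 minus ZT0 changed between settings for Naprt (-0.52 to 0.06), Nadsyn1 (-0.13 to 0.81) and Haao (-0.13 to 0.30). These genes did not pass for that contrast in any setting. Rhythmic genes numbered 760 with the brightest probe set, 907 with the median of probe sets and 765 on replicates 2 and 3, against 1592, and 1316 to 1730 when single arrays were left out. Members among them numbered 3 to 5. Genes with a time effect numbered 704 with only genes above background, 122 with the brightest and 222 with the median probe set, 694 with array weights and 204 unmoderated, against 458. Leaving out single arrays gave 295 to 579, with the lowest values without ZT9 replicate 3 (295) and ZT18 replicate 3 (299). A 12-h component passed for 1 gene on replicates 2 and 3 only. Calls for ZT12 minus ZT0 numbered 616 with only genes above background, 52 with the brightest and 116 with the median probe set, 160 unmoderated, 70 on replicates 2 and 3 and 23 on the 6 arrays alone, against 285. Leaving out single arrays gave 39 to 776, namely 115 without ZT0 replicate 1, 776 without ZT0 replicate 2, and 39, 95 and 88 without ZT12 replicates 1, 2 and 3. Among the 10 NAD genes these calls fell from 3 to 1 with the brightest probe set, on replicates 2 and 3, and on the 6 arrays alone, and were 1 to 4 when single arrays were left out. Qprt minus Acmsd had an adjusted p of 0.152 with the brightest and 0.0669 with the median probe set. The cause of these changes was not tested.

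By level the replicate numbers did not pair the arrays: over 84 same-numbered pairs the mean correlation of deviations was -0.03, and 9 pairs exceeded 0.1. The later hours of replicate 1, in 8 of 8 clock genes and 4 of 4 rhythmic NAD genes, are a shift in time that neither this check nor a block measures. With a replicate block 1435 genes were rhythmic, 322 had a time effect and 212 passed for ZT12 minus ZT0; Kynu missed that contrast (0.0696), and no other call on a member changed. The means of Nmnat3 and Nmnat2 lie below background.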
